A study of Mus musculus with 6 samples.

Results

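The serpin genes of mouse mammary basal epithelial cells were examined with and without vimentin. The set comprised every gene of the count files whose symbol begins with Serpin, 63 of 23337 genes, sorted into clades by the letter that follows. Of these, 23 had a summed count of 60 or more over the 6 libraries. Serpina3 genes made up 11 of the 63 and 8 of the 23. All other serpins made up 52 and 15. Just inside the threshold lay Serpinf2 with 67 reads and Serpina3h with 81, and just outside it Serpinb1a with 50 and Serpinb1b with 42. Serpina3c, Serpina3f, Serpina3h, Serpina3k and Serpina3m had 20 or fewer wild-type reads in all and passed it through their knockout reads, so their passing is no evidence of a difference.

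The cells came from mammary glands of 15-week-old mice of a mixed 129/Sv X C57BL/6 background. Wild-type mice (Vimwt/wt) gave 2 libraries and vimentin knockout mice (Vimtm1Cba/tm1Cba), which carry a constitutive targeted allele on both copies of Vim, gave 4. Each library pooled 2 to 3 mice. Glands were digested with collagenase, and live cells negative for the leukocyte marker CD45 and the endothelial marker CD31, low for CD24 and high for CD49f were sorted straight into lysis buffer without culture. The work was done as 2 experiments, each with 1 wild-type and 2 knockout libraries by the day codes in the file headers. Whether the wild-type mice were littermates of the knockouts is not given in the sources used here.

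Serpins are a superfamily of proteins that share a fold and, in most members, trap a protease: the enzyme cuts an exposed reactive centre loop, and the serpin then changes shape and locks the enzyme in an inactive complex. The loop differs between members and sets which protease is caught, and a minority of members, such as the collagen chaperone Serpinh1, inhibit none. Clade A holds mostly secreted proteins and clade B mostly intracellular ones. Humans have a single SERPINA3 gene, for the acute-phase protein alpha-1-antichymotrypsin, and the mouse has a cluster of copies.

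Library totals ran from 25347967 to 31200622 reads counted in genes. Vim, the targeted gene, was counted with 7055 and 6256 reads without the targeted allele and with 2938, 2645, 3318 and 2827 reads in the knockouts. In CPM, counts scaled to a common library total adjusted by the TMM method, this was 228 ± 18.5 (SD, n = 2) and 105 ± 8.96 (n = 4). Vim fell by 1.12 on the log2 scale (edgeR, adjusted p = 0.019), so 46.1% of its wild-type level remained as counted reads. Leaving out any 1 library other than knockout 1 raised that adjusted p to between 0.0598 and 0.0908. In edgeR's quasi-likelihood test over 13925 genes, 11 genes (0.079%) passed an adjusted p of 0.05, 8 (0.0575%) higher and 3 (0.0215%) lower in the knockout. An unadjusted p under 0.05 was reached by 1193 genes (8.57%). Markers of the sorted cells such as Krt5, Trp63 and Acta2 were abundant in every library, and none of the 10 basal markers passed the test in edgeR, DESeq2 or limma (1 had an unadjusted p under 0.05). A list of 21 endothelial markers summed to between 260 and 574 CPM in the wild-type libraries and to between 120 and 173 CPM in the knockouts. All 21 lay lower, as did 7299 of the 13925 genes. Sele, an adhesion receptor of activated endothelium, was called (edgeR, adjusted p = 0.0218). DESeq2 called 13 of the 21 lower, against 0.704% of all genes. Their part in the results on serpins was not tested. In pooled sorted cells, fewer cells of a type and less RNA per cell cannot be told apart, and p-values measure the spread between these pools only.

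The Serpina3 genes are near copies of each other, which bears on how their reads can be told apart. They lie on chromosome 12 (build GRCm38, 104112724 to 104414329), 11 genes in 302 kb. Between the coding sequences of the 7 protein-coding copies in the count set, identity ran up to 91.7% for Serpina3k with Serpina3m and 91.2% for Serpina3f with Serpina3i, and was 85.2% for Serpina3m with Serpina3n. The gapless stretch where they are least alike is shown because it tells the copies apart and lies at the 3′ end of the coding sequence, in the last coding exon. Windows with a gap in any pair were left out. This removed every window centred before base 639 of the alignment. It also removed windows directly downstream with lower identity, such as 53.4% around base 1158. Among 154 windows of 60 bases without gaps, the window shown had the lowest mean pairwise identity, 73.6%, against a median of 85.1% and a highest value of 96.2%. In Serpina3n it is chr12:104413439-104413498 on the plus strand. Capitals mark the bases that differ from Serpina3n (GENCODE annotation on GRCm38, 5′ to 3′ in the direction of the gene):
Serpina3n: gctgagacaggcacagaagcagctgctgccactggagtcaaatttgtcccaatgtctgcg
Serpina3c: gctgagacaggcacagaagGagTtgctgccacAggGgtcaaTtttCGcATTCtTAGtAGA
Serpina3m: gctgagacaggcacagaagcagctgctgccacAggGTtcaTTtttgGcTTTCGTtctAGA
Serpina3k: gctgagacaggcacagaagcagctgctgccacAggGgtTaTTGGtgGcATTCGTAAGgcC
Serpina3f: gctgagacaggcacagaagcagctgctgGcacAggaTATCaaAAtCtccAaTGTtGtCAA
Serpina3i: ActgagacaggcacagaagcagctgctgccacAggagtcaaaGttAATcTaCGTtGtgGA
Serpina3g: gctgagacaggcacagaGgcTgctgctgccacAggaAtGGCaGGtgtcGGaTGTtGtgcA
The left-hand end is nearly invariant, and the differences gather at the right-hand end. From Serpina3n, Serpina3k differed at 18 of 60 bases, Serpina3c and Serpina3f at 17, Serpina3g at 16, Serpina3m at 15 and Serpina3i at 13. The window of Serpina3c is chr12:104147337-104147396, on the minus strand, and that of Serpina3m is chr12:104393760-104393819, on the plus strand. As background, the last coding exon of these genes encodes the reactive centre loop.

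**Figure D1:**
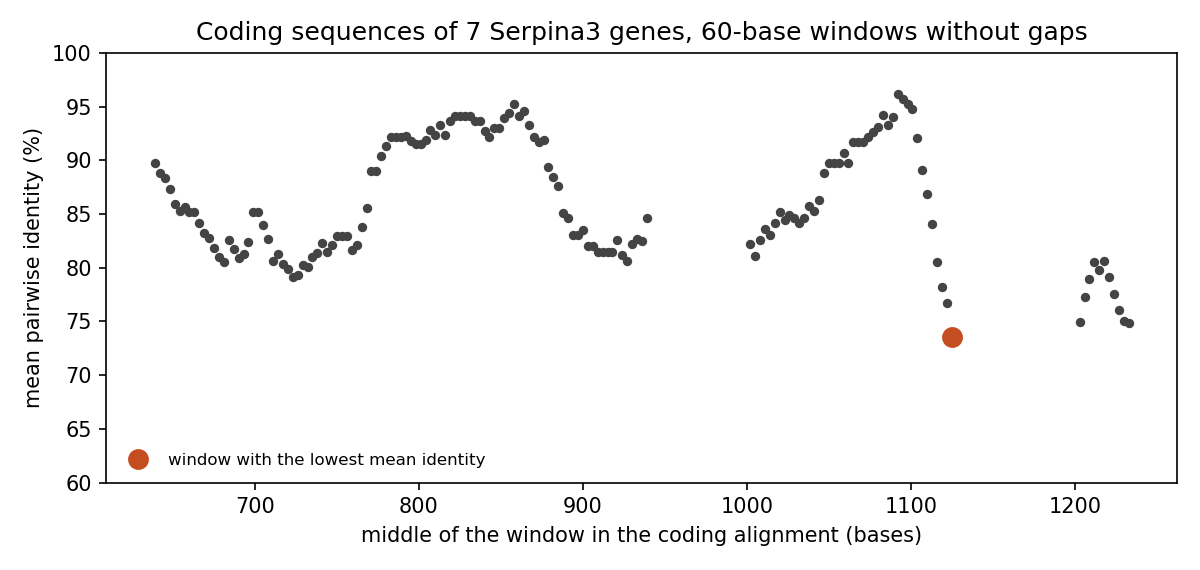
Mean pairwise identity (percent) of the coding sequences of 7 Serpina3 genes in windows of 60 bases that hold no gap, against the middle of each window in the alignment (bases). Identity peaks at 96.2% and drops directly after that peak to 73.6%, the window marked in orange.

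Reads that match several places equally were not counted, so shared sequence lowers a gene's count. Of the 50-base stretches of each transcript, the share also present in another gene was 6.90% for Serpina3n, 4.25% for Serpina3c, 10.7% for Serpina3f and 14.0% for Serpina3k. For Serpina3m it was 19.1%, mostly shared with Serpina3k, and for Serpina3h, annotated by GENCODE as a processed transcript without a coding sequence, it was 24.4%. At 100 bases the share was at most 6.09%, and the read length is not given in the sources used here. Serpina3f and Serpina3g also overlap in the counted annotation, with 147 shared exon bases (6.42% of Serpina3f and 7.28% of Serpina3g). Single-gene values of the Serpina3 copies are therefore uncertain, and their sum leaves out the same reads. Whether reads of a copy were counted for another copy was not tested.

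Serpina3 RNA was a minor share of the serpin RNA of wild-type cells and a major share in the knockout. Summed over all 11 copies, it was 43.9 and 24.6 CPM in the wild-type libraries and 577, 688, 638 and 552 CPM in the knockouts. Every knockout library lay above both wild-type libraries, and the ratio of the means was 17.9 (34.3 ± 13.6 CPM, n = 2, against 614 ± 61.6 CPM, n = 4). Within the first experiment the ratio was 14.4 and within the second 24.1. Per length (RPKM, CPM divided by the counted length in kilobases), the copies made up 3.75% of all serpin RNA in the wild type and 41.1% in the knockout. The other 52 serpins summed to 1037 ± 128 CPM in the wild type and 1019 ± 60.7 CPM in the knockout, a ratio of 0.983.

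Of the 8 Serpina3 genes, 5 passed the test, all higher in the knockout, against 0.0575% of all genes. As a description, their median log2 fold change was 5.06, or 4.53 with the 2 genes that had no wild-type read placed at their lower bound, and that of all genes tested was -0.01. Neither these counts nor the median are support for a rise of the set, since 5 of the 8 reached 60 reads only with their knockout reads. In 6 of the 8, all 4 knockout libraries lay above both wild-type libraries, a pattern seen in 7.6% of all genes. For the same reason, that count is no support for a rise of the set either.

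Serpina3n, a secreted inhibitor of granzyme B and of neutrophil proteases, was the most abundant copy (chr12:104406708-104414329, plus strand, GRCm38). Its level was 40.1 and 21.7 CPM in the wild-type libraries and 532, 636, 590 and 510 CPM in the knockouts. The lowest knockout library stood far above the highest wild-type library, and the wild-type libraries differed more from each other, in proportion, than the knockouts did. The log2 fold change was 4.19 (SE 0.28, adjusted p = 0.00132, edgeR). Serpina3n gave 88.3% to 91.5% of the Serpina3 reads in the wild type and 92.2% to 92.5% in the knockout. Without Serpina3n the sum went from 3.31 ± 0.60 to 46.7 ± 4.80 CPM, a ratio of 14.1.

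Serpina3m went from near absence to a clear level. It had 0 and 1 reads in the wild-type libraries and 665, 596, 671 and 492 reads in the knockouts, the latter equal to 21.6 ± 1.84 CPM. The ratio of its rates was 1270, with an exact 95% interval of 228 to 50202 that covers counting error only (edgeR, adjusted p = 8e-05). Reads that could equally come from Serpina3k, its nearest copy, were lost to both.

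Serpina3f had 9 and 6 wild-type reads and 442, 475, 483 and 346 knockout reads. This was 0.27 and 0.23 CPM against 13.9, 18.8, 16.2 and 13.6 CPM. The groups were far apart: the log2 difference was 5.92 (SE 0.29) at an adjusted p of 0.000151 in edgeR, and the call held in each of the alternatives tried and without any 1 library.

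Serpina3k and Serpina3c had no read in either wild-type library. Serpina3k, a secreted inhibitor, had 96, 75, 107 and 53 reads in the knockouts. This was at least 57.8-fold higher when the wild-type group is set at a floor of 3 reads (edgeR, adjusted p = 0.0129). Serpina3c had 62, 32, 39 and 35 reads, at least 29.4-fold higher (edgeR, adjusted p = 0.0319). The 2 fold bounds take every read as counted for the right copy. Both calls were sensitive to single libraries. Leaving out any 1 library raised the adjusted p of Serpina3c to between 0.0556 and 0.208, and that of Serpina3k was 0.0824 when wild type 1 was left out, 0.0762 when knockout 2 was and 0.0572 when knockout 3 was, while it stayed called in the other 3 such fits. Every knockout library still held reads of both genes and no wild-type library did.

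The remaining 3 copies did not pass. Serpina3g, an intracellular member that inhibits lysosomal cysteine proteases, was at 1.92 and 1.15 CPM in the wild type and at 3.99, 3.71, 3.19 and 3.42 CPM in the knockouts. The groups did not overlap, but the log2 difference of 1.21 (SE 0.30) had an adjusted p of 0.266, and of 0.0543 with the experiment as a block. DESeq2, which called 1.87% of all genes, 1.17% higher, called it (adjusted p = 0.0159). Serpina3h lay between 0.16 and 1.11 CPM in all libraries (log2 difference 0.70, adjusted p = 0.927). Serpina3i was at 1.13 and 1.19 CPM in the wild type and between 0.64 and 1.15 CPM in the knockout, overlapping ranges with a log2 difference of -0.35 (SE 0.39, adjusted p = 0.929), although its coding sequence is 91.2% identical to that of Serpina3f. Serpina3a, Serpina3b and Serpina3j had at most 2 reads over all libraries.

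**Figure D2:**
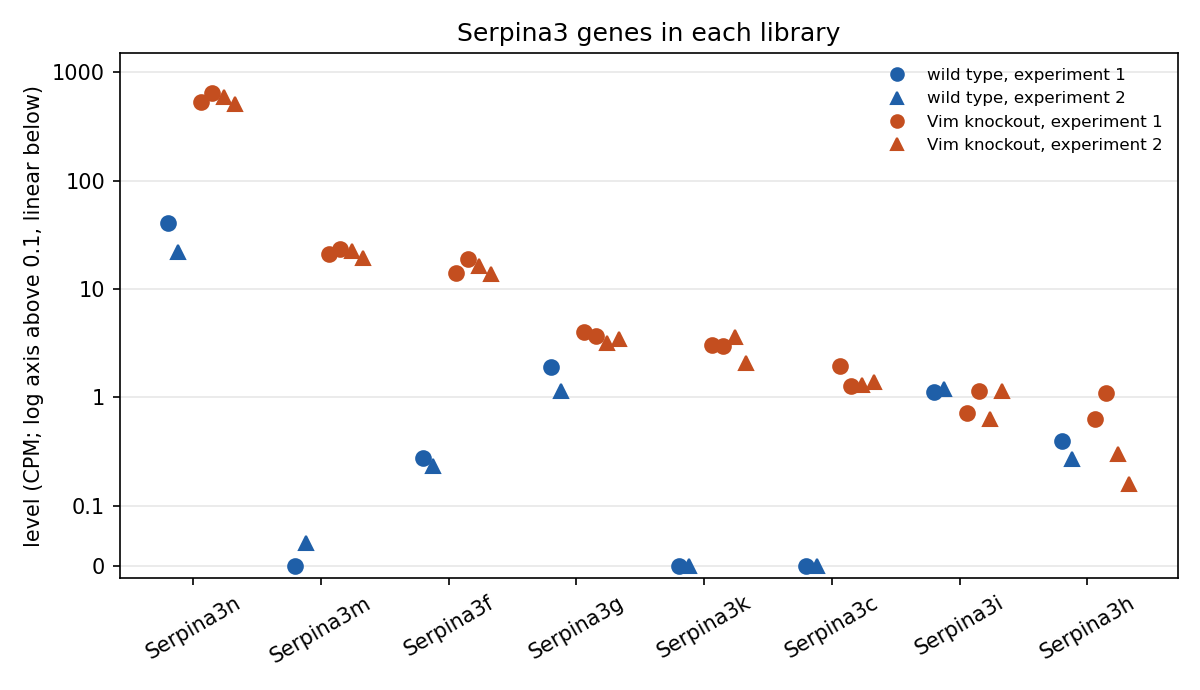
Level of each of 8 Serpina3 genes in each library (CPM, log axis above 0.1 and linear below), with wild type in blue, Vim knockout in orange, circles for the first and triangles for the second experiment. The knockout points of Serpina3n lie between 510 and 636 CPM and its wild-type points at 40.1 and 21.7 CPM, while the points of Serpina3i and Serpina3h overlap between genotypes.

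The upstream sequences of the copies were compared because neighbouring copies differed in how far they rose. RefSeq's promoter table (GRCm38.p6) held 17 of the 23 serpins and 8 of the 11 Serpina3 genes, among them Serpina3c, f, g, i and n. Over the 250 bases before the start, Serpina3c and Serpina3n were 90.5% identical, Serpina3f and Serpina3i 64.1%, and Serpina3f and Serpina3n 60.6%. The entry of Serpina3g starts 21603 bases from the start used for counting, so it was left out of the next comparison. The longest stretch common to the other 4 was 15 bases, CAGAGCACAGCTTGT, which begins 61 to 89 bases before the start. It was found on either strand in 5 of 32851 promoter entries (0.0152%), all of them entries of these 4 genes. The stretch was chosen as common to these 4, so finding it in them is no evidence, and its rarity elsewhere was not tested. The 4 sequences are shown with that stretch in capitals, for Serpina3n (chr12:104406458-104406707, plus strand), Serpina3c (chr12:104153873-104154122, minus strand), Serpina3f (chr12:104214294-104214543, plus strand) and Serpina3i (chr12:104262872-104263121, plus strand):
Serpina3n: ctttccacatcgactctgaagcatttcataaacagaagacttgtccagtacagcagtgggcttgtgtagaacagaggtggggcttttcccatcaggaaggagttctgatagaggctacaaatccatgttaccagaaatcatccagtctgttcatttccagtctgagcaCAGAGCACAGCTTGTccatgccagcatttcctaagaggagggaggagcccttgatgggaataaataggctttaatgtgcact
Serpina3c: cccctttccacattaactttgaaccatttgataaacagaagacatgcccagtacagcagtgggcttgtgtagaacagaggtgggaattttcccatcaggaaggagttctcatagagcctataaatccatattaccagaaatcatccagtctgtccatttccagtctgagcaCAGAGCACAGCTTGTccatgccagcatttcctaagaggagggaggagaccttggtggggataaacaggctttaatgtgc
Serpina3f: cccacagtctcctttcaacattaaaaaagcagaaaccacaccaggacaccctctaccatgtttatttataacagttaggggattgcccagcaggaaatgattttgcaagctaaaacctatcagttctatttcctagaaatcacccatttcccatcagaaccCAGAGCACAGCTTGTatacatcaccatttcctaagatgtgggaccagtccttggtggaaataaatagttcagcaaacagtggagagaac
Serpina3i: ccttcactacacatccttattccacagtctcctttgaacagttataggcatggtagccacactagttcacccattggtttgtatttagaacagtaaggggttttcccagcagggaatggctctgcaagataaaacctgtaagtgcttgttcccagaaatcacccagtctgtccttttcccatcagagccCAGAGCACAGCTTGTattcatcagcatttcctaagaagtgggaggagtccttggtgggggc
Serpina3i carries the shared stretch and did not pass the test, while the other 3 did. A STAT motif (TTCNNNGAA) occurred upstream of Serpina3f, Serpina3g and Serpina3i and in 7.02% of all promoters. The AP-1 motif TGACTCA (4.46% of all promoters) occurred upstream of none of the 8 Serpina3 entries. A C/EBP motif (TTGCNNAA, 9.56%) occurred upstream of Serpina3b and Serpina3f, and an NF-kB motif (9.55%) upstream of Serpina3c, Serpina3g and Serpina3i. The letters TATAAA (12.4%), those of a TATA box, occurred upstream of Serpina3a, Serpina3b, Serpina3c and Serpina3f. They were sought at any position of the 250 bases, so a match need not be a TATA box. Motifs were searched on both strands, and a match of letters is a description of the sequence only.

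No gene around the cluster passed the test. Of 31 genes without a Serpin symbol within 1 Mb of a Serpina3 gene, 12 were tested and none passed in edgeR, DESeq2 or limma, with 1 at an unadjusted p under 0.05 and a median log2 difference of 0.01. The smallest p belonged to Ifi27l2a, an interferon-induced gene (log2 difference 1.53, adjusted p = 0.523, 0.16 against 0.49 CPM). Asb2 and 4831426I19Rik followed, with log2 differences of -0.61 and 0.61 and adjusted p of 0.7 and 0.754. The other 14 clade A genes, Serpina1 copies included, summed to 0.39 ± 0.18 CPM in the wild type and 0.29 ± 0.22 CPM in the knockout. The liver makes most clade A serpins, and of 14 hepatocyte markers Ahsg, Cps1, Ttr and Serpina1a had no read in any library, while Alb had reads in knockout 1 only, at 0.063 CPM. The whole list summed to 46.2 to 50.4 CPM in the wild type and 40.9 to 79.6 CPM in the knockout, most of it from the fibrinogen chains Fgg and Fgb.

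Outside Serpina3, no serpin passed the test over all 6 libraries. Of the 15 genes, 0 were called by edgeR or limma, and the median log2 fold change was 0.11. An unadjusted p under 0.05 (8.57% of all genes) was reached by 2, Serpinb6b among them. Of the 15, 2 had all 4 knockout libraries above both wild-type libraries, against 7.6% of all genes, and in none were all 4 below both, against 8.57%. DESeq2 called 1 of the 15, Serpinb6b, and the fit with the experiment as a block also called 1, a different gene. In that block fit 1.12% of all genes were called higher and 0.438% lower. The log2 values of the 8 Serpina3 copies ran from -0.35 to 9.98, the highest being that of Serpina3m with 1 wild-type read. Those of the 15 ran from -0.65 to 0.72, a range that took in Serpina3h and Serpina3i.

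**Figure D3:**
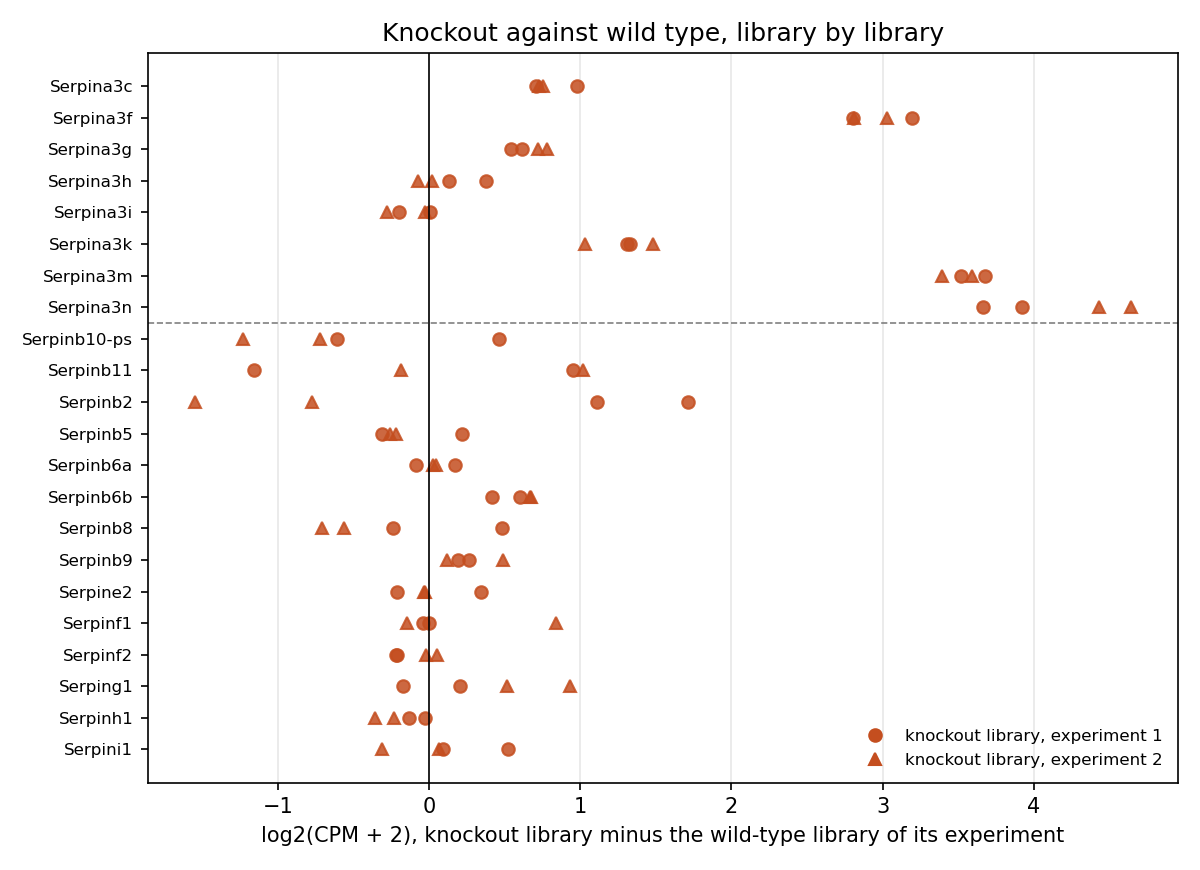
Log2(CPM + 2) of each knockout library minus that of the wild-type library of its experiment, for 22 serpin genes, Serpina3 above the dashed line. Serpina3n lies between 3.66 and 4.64 and Serpinb2 on opposite sides of 0 in the 2 experiments. The added 2 CPM shrinks differences of genes with low levels: Serpina3m, at 9.98 in the edgeR fit, lies between 3.39 and 3.68 here.

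By level per length, clade H led the wild-type cells. Serpinh1 (chr7:99345375-99353239), the collagen chaperone of the endoplasmic reticulum, was at 220 ± 27.9 RPKM in the wild type, 49.1% of all serpin RNA, and at 193 ± 9.63 RPKM in the knockout, 26.7%. Its libraries read 489 and 585 CPM in the wild type and 481, 445, 498 and 458 CPM in the knockout. The ranges overlapped and the log2 difference was -0.19 (SE 0.12, adjusted p = 0.785). The second share is of a sum that grew with Serpina3. Of 22 collagen and collagen-processing genes that Serpinh1 works with, none passed in edgeR, DESeq2 or limma and 1 had an unadjusted p under 0.05, P4ha2, a subunit of collagen prolyl hydroxylase (log2 difference 0.42, adjusted p = 0.502). The next by p were Col4a2 and Col4a1, chains of basement membrane collagen, at -0.30 and -0.37 (adjusted p = 0.623 and 0.644).

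Clade B was next, with 27 genes, of which 8 reached 60 reads and 6 had none. It summed to 311 ± 40.5 CPM in the wild type and 311 ± 34.5 CPM in the knockout. Serpinb5, known as maspin and made by myoepithelial cells of the breast, was its most abundant member at 58.8 ± 10.9 RPKM in the wild type. It read 131 and 171 CPM in the wild type and 153, 106, 142 and 147 CPM in the knockout, overlapping ranges with a log2 difference of -0.14 (SE 0.17, adjusted p = 0.938). Its wild-type libraries (51.1 and 66.5 RPKM) lay above those of Serpinb6a (37.5 and 42.3 RPKM), an inhibitor of trypsin-like enzymes and cathepsin G.

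Serpinb6a was at 79.9 and 70.9 CPM in the wild type and 90.4, 75.1, 72.1 and 73.3 CPM in the knockout (log2 difference 0.04, SE 0.13). Its copy Serpinb6b was at 7.82 and 5.97 CPM in the wild type and at 12.9, 11.1, 10.6 and 10.7 CPM in the knockout. All 4 knockout libraries were above both wild-type libraries, in both experiments (0.51 and 0.67 in log2(CPM + 2)). The log2 difference of 0.72 (SE 0.19) did not pass in edgeR (adjusted p = 0.279, and 0.0612 with the block) and passed in DESeq2 (adjusted p = 0.0297). Serpinb9, the intracellular inhibitor of granzyme B, was at 25.3 and 30.3 CPM and at 30.8, 29.2, 33.1 and 43.4 CPM, with overlapping ranges and a log2 difference of 0.30 (adjusted p = 0.763). Serpinb8, an inhibitor of furin, was between 9.40 and 19.7 CPM in all libraries (log2 difference -0.31, adjusted p = 0.896).

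The other 3 members, on chromosome 1 as are Serpinb5 and Serpinb8, varied most between libraries. Serpinb2, an inhibitor of urokinase, was at 11.4 CPM in wild type 1 and 26.9 and 41.8 CPM in the knockouts of the same experiment, and at 30.8 CPM in wild type 2 and 17.2 and 9.21 CPM in those of the second. The knockouts were thus higher in the first experiment and lower in the second, by 1.41 and -1.16 in log2(CPM + 2). Over all libraries the log2 difference was 0.18 (SE 0.58, adjusted p = 0.981). Serpinb11 read 20.7, 3.24, 11.7 and 3.94 CPM in the knockouts, a spread that took in both wild-type libraries (9.70 and 4.73 CPM). Serpinb10-ps, by its symbol a pseudogene, was highest in the same knockout library as Serpinb11, at 6.57 CPM, with 2.09, 2.82 and 1.38 CPM in the others and 4.23 and 5.93 CPM in the wild type. Neither passed (adjusted p = 0.955 and 0.877).

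**Figure D4:**
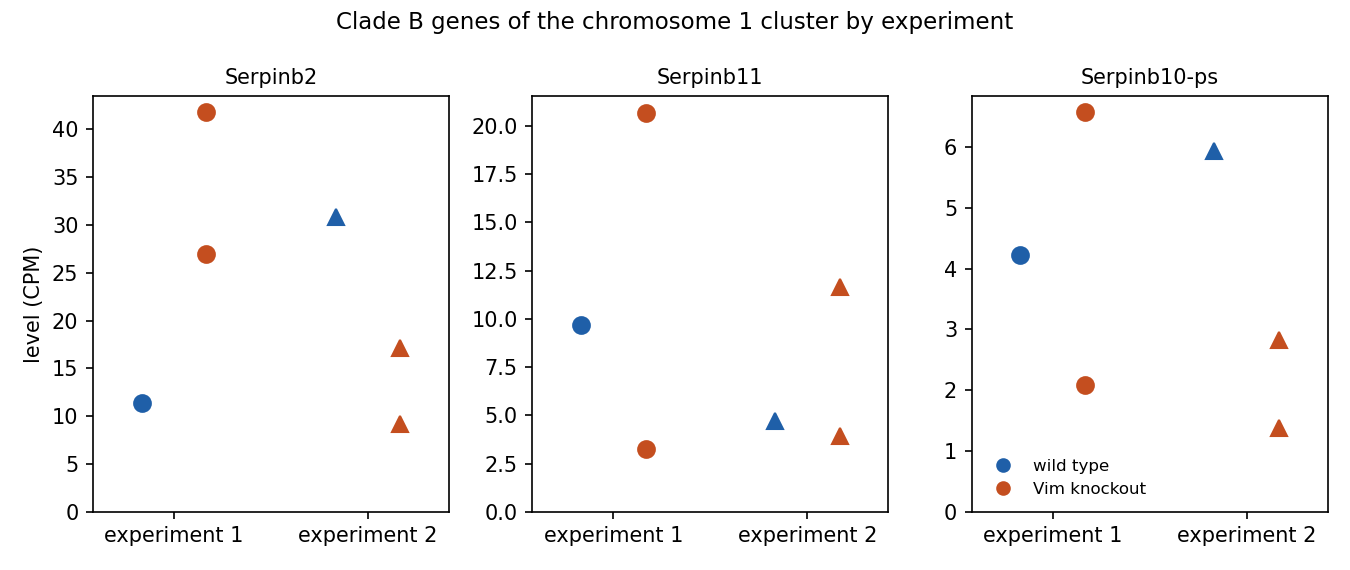
Levels (CPM) of Serpinb2, Serpinb11 and Serpinb10-ps in each library, by experiment, with wild type in blue and Vim knockout in orange. For Serpinb2 the wild-type library is the lowest of the first experiment at 11.4 CPM and the highest of the second at 30.8 CPM.

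In clade E, Serpine2, an inhibitor of thrombin and urokinase at cell surfaces, was at 45.0 ± 4.24 CPM in the wild type and 46.0 ± 7.43 CPM in the knockout (log2 difference 0.03). Serpine3 had 2 reads.

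Clades F, G and I held the remaining genes. Serpinf1, a non-inhibitory secreted factor known for its effect on vessel growth, was at 20.7 and 16.1 CPM in the wild type and 20.7, 20.1, 30.3 and 14.3 CPM in the knockout. Serping1, the C1 inhibitor of complement and contact activation, was at 19.0 and 14.4 CPM and at 16.7, 22.2, 29.2 and 21.4 CPM. Both reached their highest level in knockout 3, and in both the groups overlapped (log2 differences 0.22 and 0.42, adjusted p = 0.939 and 0.718). Serpini1, an inhibitor of tissue plasminogen activator known from neurons, was at 4.32 ± 2.11 and 4.64 ± 1.26 CPM. Serpinf2, the plasmin inhibitor, stayed under 1 CPM in every library. The coagulation inhibitors Serpinc1 and Serpind1, the single genes of clades C and D, had 36 and 26 reads in all.

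**Figure D5:**
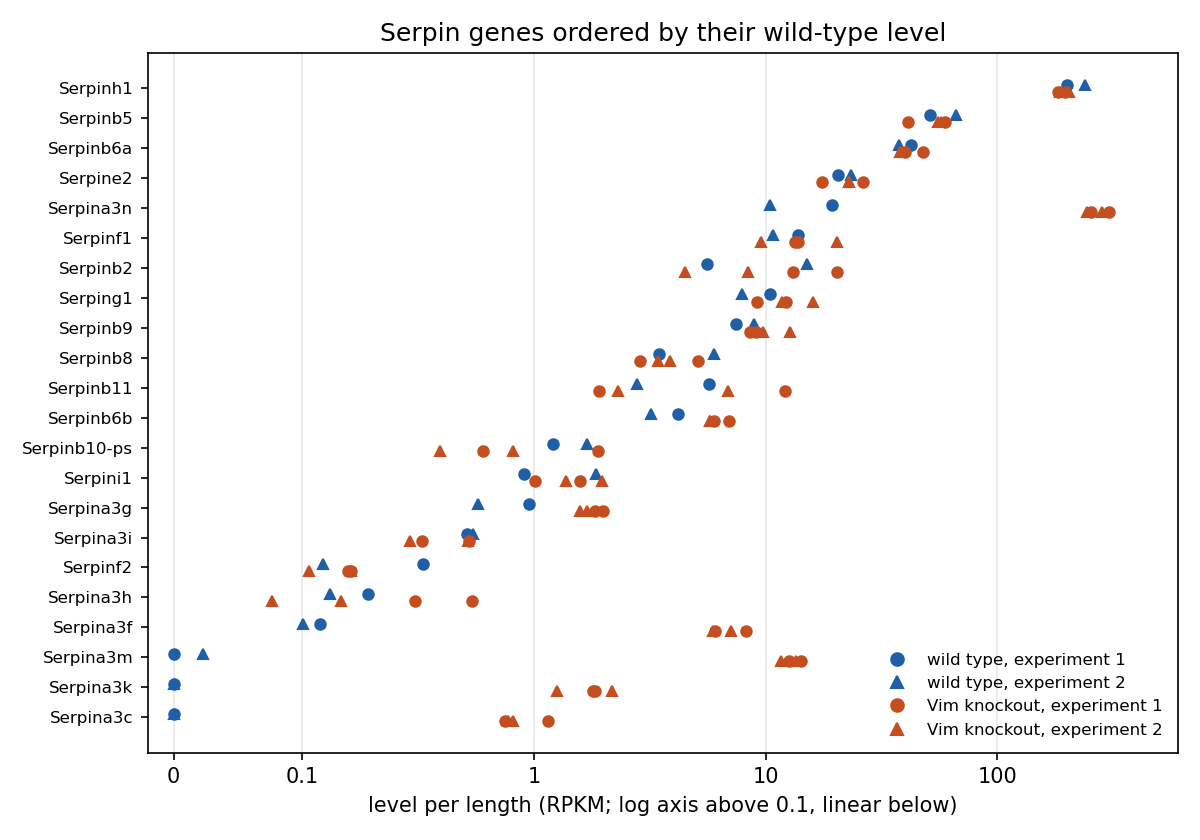
Level per length of 22 serpin genes in each library (RPKM, log axis above 0.1 and linear below), ordered by the wild-type mean, with wild type in blue and Vim knockout in orange. Serpina3n moves from 14.8 RPKM among wild-type means to the first place among knockout means, at 272 RPKM.

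In the order of levels per length, Serpina3n ranked 6 in the wild type (14.8 ± 6.24 RPKM), within the spread of Serpinf1 (12.3 ± 2.21 RPKM) and Serpinb2 (10.3 ± 6.71 RPKM). In the knockout it ranked 1 at 272 ± 27.3 RPKM, with its lowest library at 245 RPKM above the highest of Serpinh1 at 204 RPKM. Serpina3m ranked 8 in the knockout at 13.0 ± 1.11 RPKM, level with Serpinf1 and Serping1, and Serpina3f ranked 12 at 6.82 ± 1.05 RPKM. The leading members outside Serpina3 kept close ranks: Serpinb5 was 2 and 3 and Serpinb6a 3 and 5.

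The proteases that serpins act on were read from a list of 49 extracellular serine proteases, of which 27 were tested. None passed in edgeR, DESeq2 or limma, 3 had an unadjusted p under 0.05 (8.57% of all genes), and the median log2 difference was 0.02. The smallest p belonged to Htra1, a secreted protease (log2 difference -0.96, adjusted p = 0.455), Hpn, the membrane protease hepsin (-0.50, adjusted p = 0.51), and Plau, the urokinase that several serpins inhibit (0.45, adjusted p = 0.577). Plau was at 116 CPM in the wild type and 159 CPM in the knockout, with all 4 knockouts above both wild-type libraries, as in 7.6% of all genes.

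Receptors and cofactors of serpins were 21 genes, including the lipoprotein receptors that clear serpin complexes and the syndecans that carry heparan sulphate. They gave no call in edgeR, DESeq2 or limma, and 5 had an unadjusted p under 0.05 (8.57% of all genes). The fit with the experiment as a block, given below for single genes, called 1.12% of all genes higher and 0.438% lower. Sdc4, a syndecan, was at 678 CPM in the wild type and 1025 CPM in the knockout (log2 difference 0.60, adjusted p = 0.343, and 0.0415 with the block). Sorl1 and F2r, a sorting receptor and the thrombin receptor, followed at 0.37 and 0.35 (adjusted p = 0.372 and 0.561). Among 18 tested protease inhibitors of other families none passed in edgeR or limma. DESeq2 called 1, Slpi, against 1.17% of all genes called higher. An unadjusted p under 0.05 was reached by 3, against 8.57% of all genes. Slpi, a secreted inhibitor of neutrophil elastase, was at 1073 CPM in the wild type and 1852 CPM in the knockout (log2 difference 0.79, adjusted p = 0.325, and 0.0415 with the block). Tfpi2, an inhibitor of plasmin, was at 8.53 and 4.28 CPM (-0.99, adjusted p = 0.58, and 0.0443 with the block), and Spink5 at 2.04 and 0.52 CPM (-1.93, adjusted p = 0.382).

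Serpina3 genes are known as acute-phase genes and as targets of the transcription factor STAT3, so a list of such genes was set beside them. Of 25 tested, none passed in edgeR, DESeq2 or limma, and 6 had an unadjusted p under 0.05 (8.57% of all genes). Of these 25, 11 lay above 0 and 14 below, and the median was -0.05. Lif, a cytokine that activates STAT3, was at 323 ± 114 CPM in the wild type and 518 ± 92.2 CPM in the knockout. Its log2 difference was 0.68 (edgeR, adjusted p = 0.449, and 0.0155 with the block, which called 1.12% of all genes higher). Lbp, an acute-phase protein, lay in the other direction at -0.60 (adjusted p = 0.48), and Il4ra at 0.34 (adjusted p = 0.502). The acute-phase genes Saa1 and Saa2 were at 1.55 and 0.89 CPM in the wild type and at 0.63 and 0.34 CPM in the knockout, named here after their values were seen.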

How the data were processed

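The mRNA of sorted basal cells was sequenced in 6 libraries (strand-specific TruSeq, per the labels' protocols). Per the submitters' processing notes, bcl2fastq 2.17, STAR 2.5.2b and Subread 1.5.1 were used with build mm10. The authors deposited 1 table of raw counts per library. Per the file headers, these were made with featureCounts 1.5.1 over exons by gene, reverse-stranded, leaving out reads that mapped to several places or to overlapping genes.

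From the deposited counts, genes kept by filterByExpr were scaled by TMM and tested with edgeR 4.0.16 (quasi-likelihood, robust, two-sided, genotype only, R 4.3.3), adjusted by Benjamini-Hochberg over the 13925 genes tested and called at 0.05. Alternatives used DESeq2 1.42.0, limma 3.58.1 (voom), other scalings and filters, replicate blocks and leaving out each library. Scripts were tested on simulated data. RPKM used the Length column of the files. Log2 differences within an experiment used a pseudocount of 2 CPM. Coding sequences were aligned with MAFFT 7.526. A floor of 3 reads over the wild-type group stood for 0.

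Libraries were paired by experiment: a library's deviations from its group mean correlated with those of the wild-type library of its experiment at 0.358, 0.430, 0.398 and 0.556. With 2 wild-type libraries these deviations mirror each other, so correlations across experiments have the same size and the opposite sign. Title numbers did not pair the libraries (0.358 and -0.430). Library pairs differed by more than sampling noise, least for knockout 3 and 4.

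Named genes are Vim, each serpin with 60 or more reads except 1 that is not reported here, serpins just under it and, of each list, members called and otherwise the 3 with the smallest p. Members and lists were chosen with earlier results of these data known.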

Additional observations from a re-analysis of the deposited data

Results flagged for a closer look

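In 3 of 26 groups of 4 knockout libraries, 1 library stood apart from the other 3, its gap to the nearest exceeding Dixon's critical share of the group's range, where chance gives about 1 in 20. Serpina3c was at 1.95 CPM in knockout 1, above the other knockouts. Serpinb6a was at 90.4 CPM in the same library, again the highest of the 4. Serpinf2 was at 0.235 CPM in knockout 3, below the others. For Serpinb2, both knockout libraries of the first experiment lay above their wild-type library and both of the second lay below theirs, a gap of 2.57 between the experiments in log2(CPM + 2). That difference was not tested.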

How the results depend on the processing

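The direction of the 5 called Serpina3 genes held in every alternative, and Serpina3n, Serpina3m and Serpina3f were called in all of them. Without 1 library the count of called serpins was 3 to 4 instead of 5, with 3 left without wild type 1, knockout 2 or knockout 3. Serpina3c was also lost with the replicate block by title number (adjusted p = 0.0524). The replicate block by experiment called 6 serpins and raised all calls from 11 to 217, against 261 by DESeq2. DESeq2 called 7. Of the 15 serpins outside Serpina3, 0 were called over the 6 libraries, 1 by DESeq2 and 1 with the block by experiment. Vim was at -1.21 and not called with the block by title number (adjusted p = 0.0619), and at -1.18 to -1.03 without 1 library. The Serpina3 median was 4.82 to 5.40 without 1 library, and the summed ratio 14.0 to 25.2, or 14.1 without Serpina3n.

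None of the genes that changed sign was called. Under the replicate block by title number Serpine2 was at -0.026 and Serpini1 at -0.033, and with the block by experiment Serpinb2 was at -0.021. Apart from Serpina3c, lost with the block by title number, the blocks changed no call of a serpin described here. Without 1 library the log2 values ran from -0.043 to 0.15 for Serpine2, -0.30 to 0.063 for Serpinb5, -0.18 to 1.09 for Serpinb11 and -0.35 to 1.07 for Serpinb2. They ran from -0.63 to 0.14 for Serpinb8, -0.0012 to 0.43 for Serpinf1, -0.037 to 0.15 for Serpinb6a and -0.30 to 0.72 for Serpini1. The cause was not tested. Serpinf2 left the test in 3 of 6 such fits. With 2 wild-type libraries, a leave-out of either rests on 1.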

Other observations

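Lysosomal cysteine proteases, the enzymes that intracellular serpins such as Serpina3g can hold in check, lay lower in the knockout. Of 8 tested, all had a log2 difference below 0, as did 7299 of the 13925 genes. Their median was -0.46, against -0.01 over all genes. None passed in edgeR or limma, 4 had an unadjusted p under 0.05 (8.57% of all genes), and DESeq2 called 2 lower, Ctsc and Ctsl (0.704% of all genes). Ctsl, the cathepsin with the highest counts of the list, was at 2630 and 2926 CPM in the wild-type libraries and at 2086, 1536, 1739 and 1792 CPM in the knockouts. All 4 knockouts lay below both wild-type libraries, as in 8.57% of all genes, and the log2 difference was -0.64 (SE 0.15, edgeR adjusted p = 0.256). Ctsc, the protease that activates granzymes and neutrophil enzymes, was at 41.8 and 45.5 CPM and at 29.6, 23.4, 28.5 and 27.6 CPM. Its log2 difference was -0.68 (SE 0.13, edgeR adjusted p = 0.176, and 0.0263 with the experiment as a block, which called 0.438% of all genes lower). Ctsf was at 30.3 CPM in the wild type and 22.1 CPM in the knockout (-0.45, adjusted p = 0.409), while Ctsb differed little, at 595 and 585 CPM. The summed level of the list, most of it from Ctsl, was 3462 to 3627 CPM in the wild type and 2256 to 2774 CPM in the knockout. The summed endothelial markers were also lower in every knockout library, at 120 to 173 CPM against 260 to 574 CPM, and their part in this was not tested.

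Markers of other cell types were read in the same way. Of 12 fibroblast markers 11 lay below 0, as did 7299 of the 13925 genes, and none passed in edgeR, DESeq2 or limma. With 2 at an unadjusted p under 0.05 (8.57% of all genes), the list was led by Lum and Dpt (-1.46 and -1.62, edgeR adjusted p = 0.236 and 0.339), followed by Fap (-1.23). Of 16 luminal markers none passed in those tools, and 4 had an unadjusted p under 0.05 (8.57% of all genes). Csn2, a milk protein, was at -6.25 (edgeR, adjusted p = 0.128, and 0.0212 with the block, which called 0.438% of all genes lower), then came Esr1 at 0.66 and Lalba at -1.54. Leukocyte markers summed to 4.62 to 6.11 CPM in the wild type and 2.33 to 5.27 CPM in the knockout. Of 4 tested leukocyte markers none passed in those tools and 0 had an unadjusted p under 0.05, and Laptm5, Cd79a and Csf1r had the smallest p (-1.18, -0.35 and 0.26). Of 2 adipocyte markers tested, Fabp4 was at -2.03 (adjusted p = 0.22, called by DESeq2) and Lipe at 0.71. Of 4 hepatocyte markers tested none passed, and 1, Apoa1, had an unadjusted p under 0.05 (-1.71, adjusted p = 0.376), followed by Fgg at 0.33 and Hpx at -0.38.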
